A study of Mus musculus with 32 samples.

Results

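The genes described here are protein-coding genes of the mouse that still carried the name of a RIKEN cDNA clone, with symbols ending in Rik. They were taken from the juvenile gene table as the rows whose Ensembl identifier is protein-coding in GENCODE M21 with such a symbol, and 310 of the 20368 genes of that table, 13660 of them protein-coding, met this rule. M21 holds 581 such genes in all, and the other 271 were absent from the table, which lists genes of at least 3 TPM (the RSEM abundance unit, corrected for transcript length and library size) in at least 1 mouse. Of the 310 members, 283 reached 3 TPM in 3 or more mice, 146 in all 28, and 18 in only 1 mouse, and 34 reached it at 18 dpp alone.

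The samples were germ cells of C57BL/6J males, and the labels give no mutation or treatment in any group. Each juvenile sample came from the testes of 1 mouse, 3 mice at 8 days post-partum (dpp) and 5 each at 10, 12, 14, 16 and 18 dpp, so the ages follow the first wave of spermatogenesis. The 4 adult samples were pachytene/diplotene spermatocytes enriched by sedimentation at unit gravity (STA-PUT), each pooled from 6 mice of 9 weeks. Poly-A RNA was sequenced and every level below is a TPM, so read depth is unknown and only the spread between samples measures error. The adult and juvenile tables were normalized separately and no test was run across them.

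A Rik symbol names a full-length cDNA clone of the RIKEN collection, and it stays in use where a gene has no other accepted name, so these genes are united by how little was known of them and not by a shared pathway. The first characters of a symbol give the source library, and symbols beginning with 17 or 49 name clones of adult testis libraries. By this label 131 members were testis-clone members and 179 were other members. In the first wave, spermatogonia enter meiotic prophase and pass through leptonema, zygonema, pachynema and diplonema, and pachytene spermatocytes are known to turn on a large number of testis-restricted genes, many of them used later in spermatids. The X chromosome is silenced in pachynema by meiotic sex chromosome inactivation.

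Few of the 310 have an established function. Known ones include 4930447C04Rik (Six6os1), a central element protein of the synaptonemal complex that holds paired chromosomes together, 2700049A03Rik (Talpid3), needed at basal bodies for cilia, 4932438A13Rik and 2610507B11Rik (Kiaa1109 and Kiaa0100), large bridge-like lipid transfer proteins, and 1300017J02Rik, the inhibitor of carbonic anhydrase. Where a member's function is not given below, none was stated because it was not certain.

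The starts of the largest risers and fallers are shown first, because CpG content at the start was lower for members that rose than for those that fell. RefSeq promoter windows on GRCm38.p6, 250 bases before to 50 after the start, were matched for 211 members, 189 of them within 1000 bases of the M21 start. Capitals mark matches on either strand to AACTGNC, the motif of MYB factors such as MYBL1 of pachytene spermatocytes, and to GTTGCCA, a core motif of RFX factors. Neither motif contains the other. The windows of 1700029F12Rik (chr13:97034313-97034612, minus strand) and 1700010I14Rik (chr17:8988083-8988382, plus strand) are the 2 of largest rise whose RefSeq start lies within 50 bases of the M21 start, and that of E030030I06Rik (chr10:22149221-22149520, minus strand) has the largest fall by the same condition.
1700029F12Rik: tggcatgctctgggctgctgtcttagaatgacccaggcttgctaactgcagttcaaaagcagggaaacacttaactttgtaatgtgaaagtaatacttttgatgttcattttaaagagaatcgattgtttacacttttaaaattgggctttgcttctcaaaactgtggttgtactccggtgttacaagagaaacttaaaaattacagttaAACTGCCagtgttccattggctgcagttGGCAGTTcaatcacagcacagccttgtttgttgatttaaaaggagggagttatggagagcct
1700010I14Rik: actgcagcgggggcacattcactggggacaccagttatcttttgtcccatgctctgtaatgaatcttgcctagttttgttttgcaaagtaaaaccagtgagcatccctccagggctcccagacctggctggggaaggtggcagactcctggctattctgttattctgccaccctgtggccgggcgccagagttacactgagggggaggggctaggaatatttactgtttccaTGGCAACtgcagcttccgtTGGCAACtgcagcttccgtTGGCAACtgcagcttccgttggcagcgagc
E030030I06Rik: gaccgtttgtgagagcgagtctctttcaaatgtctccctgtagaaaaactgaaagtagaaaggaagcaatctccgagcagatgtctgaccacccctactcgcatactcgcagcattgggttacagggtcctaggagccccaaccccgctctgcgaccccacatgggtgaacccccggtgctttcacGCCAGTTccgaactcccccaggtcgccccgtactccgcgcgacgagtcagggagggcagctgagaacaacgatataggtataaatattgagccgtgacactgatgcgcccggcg
The first window holds the MYB letters at positions 211 and 239, counted from its 5′ end. The second holds the RFX letters at positions 233, 252 and 271, within a short tandem repeat. The third, of the falling member, holds the MYB letters at position 187. The observed to expected CpG ratio was 0.173, 0.313 and 0.878 in these windows. Single members did not all follow this pattern. Of other named members meeting the same condition, 4930544G11Rik, which rose, had a ratio of 0.622 and neither motif. A730049H05Rik, which fell, had a ratio of 0.156 and RFX letters at position 280. 2410002F23Rik, which also fell, had a ratio of 0.772 and neither motif.

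Over all members with a window, CpG content was lower at the starts of members that rose than of those that fell. A CpG ratio over 0.6 was found in 49 of the 110 windows (44.5%) of members called higher at 18 than at 8 dpp and in 36 of the 51 (70.6%) of members called lower, beside 44.0% of all 20626 promoter windows and 71.0% of those of protein-coding genes, so the falling members had the share of coding genes. Among the higher members the ratio differed by clone kind. It passed 0.6 in 24 of 72 windows (33.3%) of testis-clone members but in 25 of 38 (65.8%) of other members. Over all testis-clone members the share was 36.6%. MYB letters were in 19 (17.3%) of the windows of higher members, 4 (7.84%) of those of lower members and 12.4% of all windows. They too differed by kind, in 16 (22.2%) of the testis-clone and 3 (7.89%) of the other higher members. RFX letters did not separate the directions, with 10 (9.09%), 5 (9.8%) and 4.48%. TGACGTCA, the cAMP response element bound by CREM, was in 4 (3.64%), 1 (1.96%) and 2.23%. Among the 38 windows of members that rose by 3 or more in log2(TPM + 1), a line drawn after the values were seen and with no counterpart among the falls, 6 (15.8%) had a CpG ratio over 0.6, 11 (28.9%) held MYB letters, 5 (13.2%) RFX letters and 0 the cAMP response element. These are counts of letters, given without a test. Promoters rich in CpG are known to belong mostly to broadly used genes.

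Before the comparisons, the samples were checked against marker lists for testis cells. The summed level of 6 pachytene markers (Hspa2, Piwil1, Ccna1, Ldhc, Pgk2 and Clgn) lay between 43.8 and 56.0 TPM at 8 dpp, between 1110 and 2310 at 16 dpp, between 2790 and 5170 at 18 dpp, and between 10500 and 10800 in adult samples. The 5 mice of 18 dpp fell apart, with 4970 to 5170 TPM in mice 1 to 3 and 2790 and 2950 in mice 5 and 4. Markers of Sertoli cells, all 8 found, summed to 1870 to 2090 TPM in the 8 dpp mice, 700.0 to 966 TPM in the 18 dpp mice and 43.6 to 67.9 TPM in adult samples. Those of peritubular cells summed to 1050 to 1160, 524 to 1030 and 5.57 to 10.7 TPM. All 6 spermatogonial markers were lower at 18 dpp, and their sum went from 877 to 933 TPM down to 388 to 566 TPM. Leydig cell markers lay between 169 and 472 TPM at 18 dpp against 175 to 198 at 8 dpp, macrophage markers between 50 and 92.3 against 26.3 to 36.9, red blood cell markers between 250 and 367 against 243 to 681, and endothelial markers between 31.8 and 65.2 against 50.2 to 56.6. All 6 early prophase markers were higher at 18 dpp, with sums of 276 to 397 and 1100 to 1330 TPM, and spermatid markers summed to 2.48 to 17 TPM over both ages but to 872 to 1190 TPM in adult samples. The samples are labelled germ cells, yet all 8 Sertoli markers had means of at least 3 TPM at every juvenile age. In such bulk samples, fewer cells of a type and less RNA per cell cannot be told apart, and the part of these cell types in the results below was not tested.

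From 8 to 18 dpp the uncharacterised genes moved mostly upward. By limma on log2(TPM + 1) over all genes with Benjamini-Hochberg adjustment, 163 of 310 members (52.6%) were higher at 18 dpp and 75 (24.2%) lower at an adjusted p under 0.05, where 31.8% of all 20368 genes were higher and 36.3% lower. Among protein-coding genes 33.1% were higher and 41.4% lower. The median difference was 0.53 for members and -0.09 for all genes, in log2(TPM + 1). Since a gene enters the table by reaching 3 TPM in any mouse, the count was repeated for genes that did so before 18 dpp, and 135 of 276 members (48.9%) were then higher against 28.9% of 19250 genes. The 8 and 18 dpp mice did not overlap for 217 members (70.0%), for 61.0% of all genes and for 66.9% of protein-coding genes. Of members with a mean of at least 10 TPM over the 6 ages, 77 of 148 (52.0%) were higher, against 32.2% of such genes.

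The upward shift lay with the testis-clone members. Of these 131, 104 (79.4%) were higher at 18 dpp, 12 lower and 15 not called, with a median difference of 2.23. Of the 179 other members, 59 (33.0%) were higher, 63 lower (35.2%) and 57 not called, with a median of -0.09, like that of all genes. Among those at 3 TPM in a mouse before 18 dpp, 83 of 106 testis-clone members (78.3%) and 52 of 170 other members (30.6%) were higher. Of all such genes 28.9% were higher. A called rise of 3 or more was seen in 52 testis-clone members (39.7%) and 7 other members (3.91%), beside 4.66% of all genes. The clone's source library was not used to choose the members, and no test between the 2 kinds was run. The testis-clone label itself marks genes whose RNA was found in adult testis, so it is not independent of expression in that tissue.

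**Figure D1:**
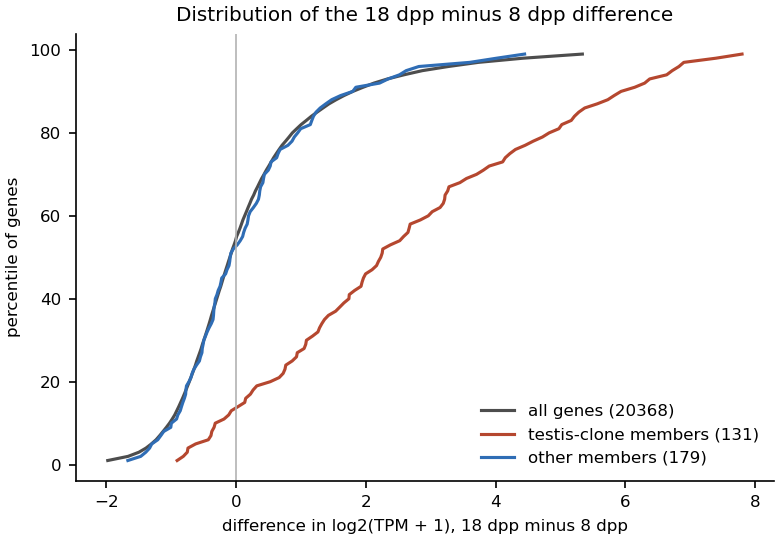
Percentiles of the difference in log2(TPM + 1), 18 dpp minus 8 dpp, for all 20368 genes (grey), 131 testis-clone members (red) and 179 other members (blue). The red line is shifted right, with a median of 2.23, while the blue line runs along the grey one, both with a median of -0.09.

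The summed level of the testis-clone members was higher in the older mice, each mouse being sampled at 1 age. It was 1386, 1445 and 1448 TPM in the 3 mice of 8 dpp and lay between 1419 and 1466 at 10 dpp. At 12 dpp it lay between 1713 and 1885 and at 14 dpp between 1832 and 1990. It then lay between 2732 and 3889 TPM at 16 dpp and between 4398 and 7885 at 18 dpp, and the ranges of 10, 12, 16 and 18 dpp did not overlap. The sum of the other members was 3996 to 4069 TPM in the youngest mice and 4348 to 4978 TPM in the oldest. The number of testis-clone members at 3 TPM or more was 41 to 45 at 8 dpp and 100 to 119 at 18 dpp, while that of other members was 137 to 142 and 136 to 145. These counts lean on the rule for entry. Of the testis-clone members 106 reached 3 TPM in a mouse before 18 dpp, and the rest were under it at 8 dpp by that rule.

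At 18 dpp mice 1 to 3 stood above mice 4 and 5. Their testis-clone sums were 7885, 7736 and 7371 TPM against 4712 and 4398, and their pachytene marker sums were split alike (5120, 5170 and 4970 against 2950 and 2790). With mice 1 to 3 of each age alone, 170 members were higher at 18 dpp than at 8 dpp and 84 lower. Of all 20368 genes 6455 were then higher and 7959 lower.

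**Figure D2:**
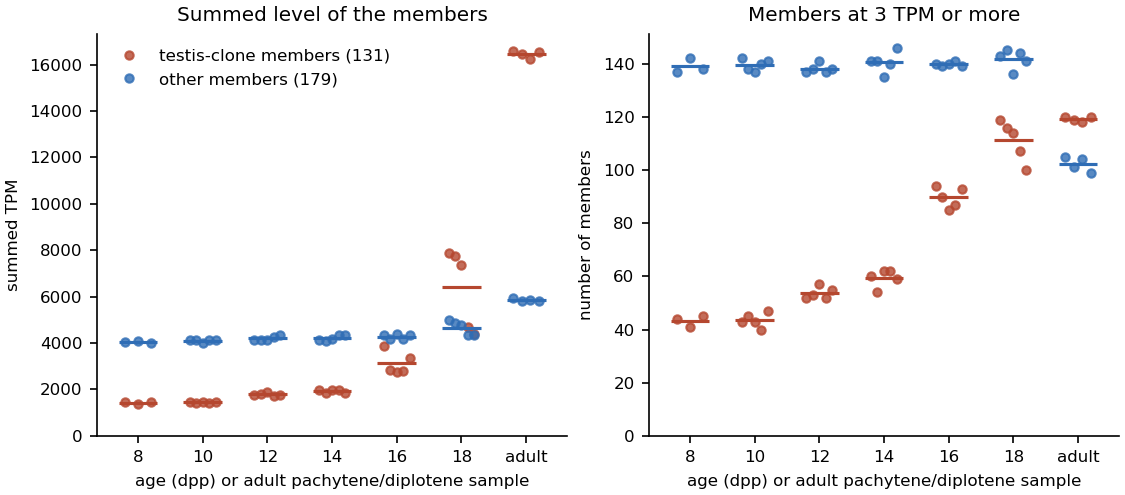
Summed TPM (left) and number of members at 3 TPM or more (right) in each mouse of 8 to 18 dpp and each adult sample, with bars at group means, for testis-clone members (red) and other members (blue). The red points climb from 1386 TPM or more at 8 dpp to at most 7885 at 18 dpp and lie between 16247 and 16571 in adult samples, which were normalized separately.

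**Figure D3:**
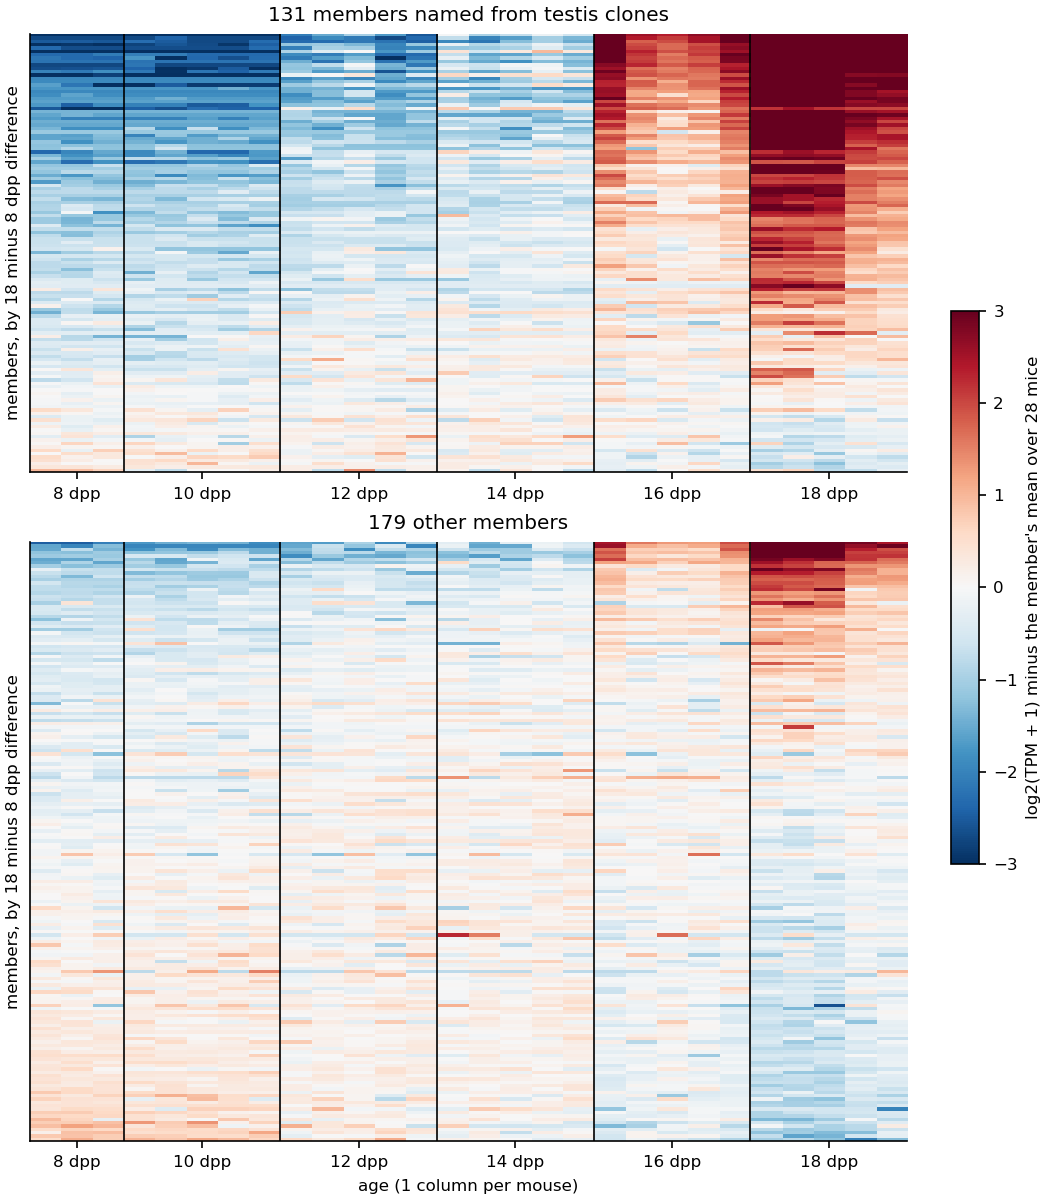
Level of the 310 members in each of the 28 juvenile mice, as log2(TPM + 1) minus the member's mean over mice, with colours limited to 3 either way, 1 row per member and 1 column per mouse, ordered within each panel by the 18 dpp minus 8 dpp difference. Most rows of the upper panel (131 testis-clone members) turn red at 16 and 18 dpp, and the lower panel (179 other members) holds rises and falls in like number (59 and 63).

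The 8 members of largest rise were all testis-clone members. 4922502D21Rik (chr6:129322164-129331796) was at 0.15, 0.0 and 0.0 TPM at 8 dpp and at 579, 567, 514, 271 and 244 TPM at 18 dpp. Its 10 dpp mice stayed under 0.2 TPM, and it lay between 1.25 and 5.55 TPM at 12 dpp, 5.79 and 11.6 at 14 dpp and 65.3 and 180.0 at 16 dpp. The ages from 10 dpp on thus did not overlap, and the difference between 18 and 8 dpp was 8.61 ± 0.328 (SE) in log2(TPM + 1), with a limma adjusted p of 3.14e-17.

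1700029F12Rik (chr13:97021864-97034362) was listed at 0 in all 3 mice of 8 dpp. At 16 dpp it was at 86.8, 33.0, 26.9, 35.5 and 68.9 TPM, and at 18 dpp at 333, 310, 300, 141 and 126 TPM, while no mouse up to 14 dpp passed 2.94 TPM. Its difference of 7.81 ± 0.336 (SE) on the log2(TPM + 1) scale, limma adjusted p = 1.83e-16, is set in part by the pseudocount of 1, since no fold can be given against 0. Mice 1 to 3 of 18 dpp again had the higher values.

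1700123L14Rik (chr6:96164497-96166243) overlaps Fam19a1 on the other strand and had the largest rise of any member between 14 and 16 dpp. It went from 0.7, 0.42, 1.71, 2.23 and 1.33 TPM at 14 dpp to 67.2, 21.6, 24.5, 35.6 and 76.7 TPM at 16 dpp, a difference of 4.22 ± 0.353 (SE) in log2(TPM + 1) with a limma adjusted p of 1.59e-09. The lowest 16 dpp mouse was above every younger one. The overlap with Fam19a1 is of whole gene spans, introns included, and overlap of exons was not checked. Where exons of 2 genes lie across each other on both strands, their reads cannot be told apart by strand. The strandedness of the libraries is not given in the sources used here.

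1700010I14Rik (chr17:8988333-9011949) differed from these in being present at 8 dpp, at 1.03, 1.27 and 1.1 TPM. It was at 425, 437, 386, 201 and 167 TPM at 18 dpp, 7.14 ± 0.287 (SE) higher in log2(TPM + 1). Among its steps, 12 against 10 dpp (1.34), 16 against 14 dpp (2.77) and 18 against 16 dpp (1.88) passed the test, with limma adjusted p-values of 0.000252, 4.19e-09 and 2.27e-06.

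The remaining members among the 8 rose by between 6.66 and 6.87 in log2(TPM + 1). They were 4933415F23Rik, from a mean of 0.0867 to 135 ± 52.1 TPM (SD, n = 5), 1700006A11Rik, listed at 0 in all 8 dpp mice and at 115 ± 19.5 TPM at 18 dpp, 4930544G11Rik, from 0.0533 to 130.0 ± 63.4, and 1700010B08Rik, from 0.64 to 184 ± 87.4. 1700006A11Rik started early, at between 2.05 and 9.31 TPM in the 12 dpp mice when the other 3 had means of 1.23 TPM or less. It is also the 1 member whose table value was over 0.2 TPM away from its summed transcript levels, by up to 2.79 TPM.

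**Figure D4:**
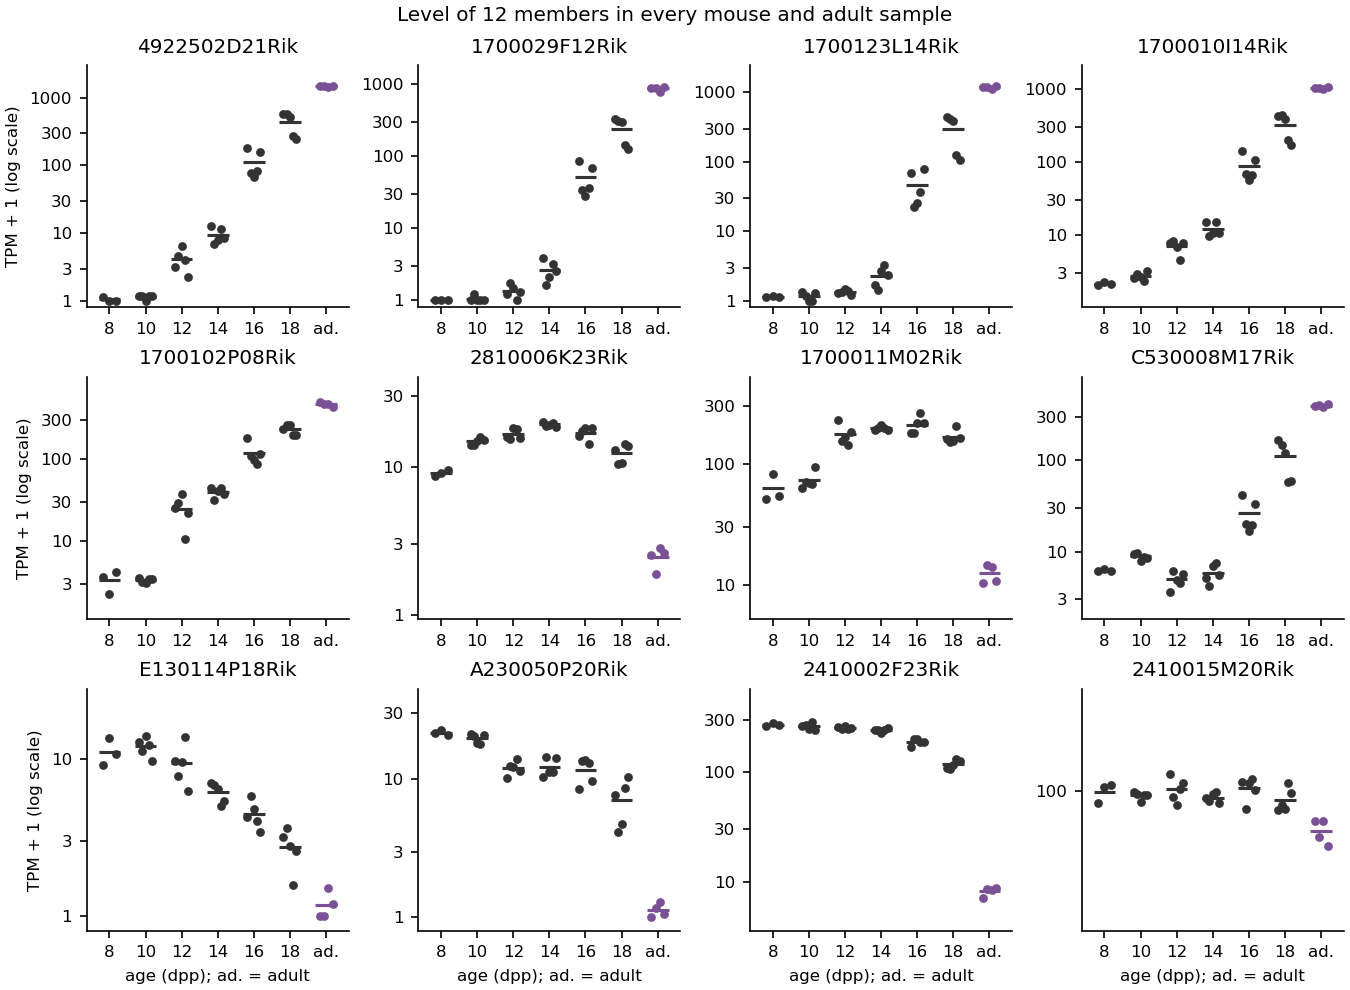
TPM + 1 on a log axis for 12 members in each mouse of 8 to 18 dpp (black) and each adult sample (purple), with bars at group means. The upper row holds the 4 largest rises, such as 4922502D21Rik from 0.05 to 435 TPM. The middle row holds members with an early or transient course, and C530008M17Rik, which dipped before a late rise. The lower row holds 3 members that fell and 2410015M20Rik, which kept between 92.2 and 101 TPM in its age means.

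The members that fell did so by less. The 8 largest falls lay between 1.31 and 2.06 in log2(TPM + 1), and none of the 8 was a testis-clone member. E130114P18Rik, within the region of the opposite-strand gene Nfia, was at 8.21, 12.6 and 9.74 TPM at 8 dpp and at 2.16, 2.62, 1.77, 0.58 and 1.59 TPM at 18 dpp, so the 2 ages did not overlap. Its level decreased by 2.06 ± 0.231 (SE, log2(TPM + 1), limma adjusted p = 1.11e-08), and it was listed at 0 in 2 of the 4 adult samples. A230050P20Rik, which overlaps Angptl6 on the other strand, went from 20.5, 21.6 and 19.9 TPM to 6.65, 3.18, 3.74, 7.63 and 9.46 TPM.

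Others among the largest falls were 6330403K07Rik, from 5.96 ± 1.89 to 1.23 ± 0.794 TPM, 1190002N15Rik, from 36.2 ± 0.411 to 13.9 ± 1.78, and 9030612E09Rik, from 4.66 ± 0.344 to 1.28 ± 0.263 (SD, 3 and 5 mice). E030030I06Rik went from 5.92 ± 0.776 to 1.62 ± 0.938 TPM and A730049H05Rik from 3.71 ± 0.257 to 0.8 ± 0.272. All passed the limma test with adjusted p-values between 1.48e-12 and 0.00106. These falls went with those of the Sertoli and spermatogonial markers given above (Sox9, Wt1, Amh, Dhh, Gata4, Cldn11 and Fshr were lower at 18 dpp, and Rhox5 higher), and their part was not tested.

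Timing was followed over the steps between neighbouring ages. From 8 to 10 dpp 3 members (0.968%) were called, all higher, where 0.977% of all genes were higher and 0.226% lower. 2810006K23Rik had the largest rise, from 7.7, 8.02 and 8.42 TPM to 12.9, 13.0, 13.9, 14.8 and 14.2 TPM, without overlap (0.71 ± 0.102 SE in log2(TPM + 1), limma adjusted p = 0.000274). It was highest at 14 dpp, at 18.3 ± 0.618 TPM (SD, n = 5), and lower again at 18 dpp, at 11.4 ± 1.79. The other 2, 0610009B22Rik and 2410131K14Rik, named after their values were seen, rose by 0.58 and 0.36, and only 1 member was called without mouse 1 or without mouse 2 of 8 dpp.

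From 10 to 12 dpp 50 members (16.1%) rose and 16 (5.16%) fell. Of all genes 12.0% rose and 9.39% fell, and of protein-coding genes 15.2% and 11.3%. The share of members that rose was thus close to that of protein-coding genes. Testis-clone members made up 33 of the rises and 4 of the falls. 1700102P08Rik (chr9:108392805-108410934) had the largest rise, from between 2.08 and 2.52 TPM in the 10 dpp mice to 24.1, 27.7, 35.7, 9.49 and 20.8 TPM at 12 dpp, a difference of 2.78 ± 0.227 (SE) in log2(TPM + 1) with a limma adjusted p of 1.46e-09. It went on to 226 ± 33.2 TPM at 18 dpp (SD, n = 5). Its span overlaps that of Ccdc36 on the other strand, a gene of meiotic double-strand break formation. Reads of any exon sequence they share could not be told apart by strand here.

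C530008M17Rik fell most in the same step, from 8.48, 8.64, 6.92, 7.76 and 7.59 TPM at 10 dpp to 2.65, 5.12, 3.88, 3.53 and 4.76 TPM at 12 dpp. The groups did not overlap, and the level decreased by 0.85 ± 0.261 (SE, log2(TPM + 1), limma adjusted p = 0.0195). Its means of the 5 mice were then 25.5 ± 11 TPM (SD) at 16 dpp and 109 ± 50.7 TPM (SD) at 18 dpp, so it was among the members higher at 18 than at 8 dpp (4.01 ± 0.302).

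Between 12 and 14 dpp 34 of the 310 members were higher and 3 lower at an unadjusted limma p under 0.05. Of all 20368 genes 1534 were higher and 428 lower by this line. After adjustment limma called 0 members, and 0.157% of all genes were higher and 0.0147% lower. Leaving out mouse 3 of 12 dpp gave 5 members, mouse 1 of 16 dpp 4, mouse 2 of 14 dpp 3, and mouse 3 of 16 dpp or mouse 5 of 18 dpp 1 each.

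From 14 to 16 dpp 95 members rose and 20 fell, beside 12.7% and 11.3% of all genes, and 72 of the rises were of testis-clone members. Rises of 3 or more were called for 12 members (3.87%), all testis-clone members, beside 0.398% of all genes. 1190005I06Rik had the largest fall, at a low level, from 1.82, 2.95, 2.38, 1.99 and 5.22 TPM to 0.59, 1.75, 0.6, 1.75 and 0.72 TPM (0.88 ± 0.254 SE lower in log2(TPM + 1), limma adjusted p = 0.0124). It shares near-identical sequence with Gm27021 on the same strand, so how their reads were split is uncertain.

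The last step was the widest. From 16 to 18 dpp 144 members rose and 64 fell, beside 23.4% and 30.6% of all genes. With median-of-ratios scaling 157 rose and 36 fell. All genes shifted alike, as 6193 of 20368 rose and 3630 fell, against 4775 and 6227 in the fit reported. 1700025F22Rik rose most. It was listed at 0 in every mouse up to 14 dpp, at 4.13, 2.76, 0.47, 1.41 and 5.0 TPM at 16 dpp and at 50.4, 35.6, 39.1, 10.8 and 7.13 TPM at 18 dpp (2.82 ± 0.37 SE in log2(TPM + 1), limma adjusted p = 2.16e-06). A630073D07Rik fell most, from 1.22, 2.61, 2.76, 2.61 and 1.04 TPM to 0.0, 0.75, 0.62, 0.66 and 0.0 TPM (1.11 ± 0.33 SE lower in log2(TPM + 1), adjusted p = 0.00616), so the groups did not overlap, at a level that stayed under 3.4 TPM in every juvenile mouse.

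For the 163 members higher at 18 than at 8 dpp, the step with the largest difference in means was 16 to 18 dpp for 83 (50.9%), 14 to 16 dpp for 53 (32.5%), 10 to 12 dpp for 23, 8 to 10 dpp for 4 and 12 to 14 dpp for 0. For all genes higher at 18 dpp these shares were 53.6% at the last step and 17.3% from 14 to 16 dpp. Of the 75 members that fell, 52 (69.3%) had their largest fall at the last step, beside 60.5% of all falling genes and 66.6% of falling protein-coding genes. An age mean of 3 TPM was first reached at 8 dpp by 180 members, at 10 to 14 dpp by 7, 14 and 8, at 16 dpp by 38 and at 18 dpp by 27, and 36 reached it at no age. Of the 38 that crossed this level at 16 dpp, 32 were testis-clone members. The first age was not counted over all genes.

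A test for any difference among the 6 ages called 264 of the 310 members (85.2%), close to the 86.2% of protein-coding genes. Of all genes 77.6% were called. Of the members called, 37 had their highest age mean at 12 or 14 dpp, which was not counted over all genes. The excess over both 8 and 18 dpp was small, and the 3 largest were 1500009L16Rik (0.69 in log2(TPM + 1)), C130074G19Rik (0.67) and 1190005I06Rik (0.67). 1500009L16Rik was at 50, 50 and 48.9 TPM at 8 dpp, at between 71.5 and 92.8 at 12 dpp, and at 37.8, 38.8, 38.5, 66.1 and 57.7 TPM at 18 dpp, where mice 4 and 5 had kept the higher values. C130074G19Rik was at 10.1 ± 1.69, 18.0 ± 1.49 and 11.3 ± 3.78 TPM at these ages (SD, 3, 5 and 5 mice).

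Some members varied little with age. 2410015M20Rik had age means between 92.2 and 101 TPM, a range of 0.14 in log2(TPM + 1), and was not called over the ages (limma adjusted p = 0.401). 1110004F10Rik had means between 128 and 141 TPM. Its 18 dpp mice, at 123 to 135 TPM, lay under its 8 dpp mice, at 140.0 to 144, a decrease of 0.13 (adjusted p = 0.0205) that changed sign with median-of-ratios scaling (0.04, adjusted p = 0.474). 4833420G17Rik had means between 31.4 and 37.3 TPM. A range of age means under 1 in log2(TPM + 1) was seen in 145 members, and the share over all genes was not counted.

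The members of highest level over the juvenile ages differed from the largest risers in direction, since all 4 fell. Among them 4933402E13Rik and 4930550L24Rik were testis-clone members by their symbols, and the others were not. 2410002F23Rik was at 260.0, 281 and 267 TPM at 8 dpp and at 107, 105, 116, 132 and 126 TPM at 18 dpp, without overlap, a fall of 1.2 ± 0.0679 (SE) in log2(TPM + 1) with a limma adjusted p of 2.23e-14. 9530068E07Rik (Kct2) went from 230.0 ± 6.95 to 135 ± 13.9 TPM and the X-linked 4930550L24Rik, of the Mage family by its RefSeq name mage-k1, from 209 ± 8.89 to 109 ± 18.3 (SD, 3 and 5 mice). The X-linked 4933402E13Rik, at 211 ± 19.8 and 168 ± 18.2 TPM, overlapped between the ages, and its fall of 0.33 (adjusted p = 0.0025) did not pass with median-of-ratios scaling (0.15 lower, adjusted p = 0.148).

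The members of known function did not move as one. They were chosen for their function after the values were seen. 4930447C04Rik (Six6os1) was at 67.1, 58.5 and 73.8 TPM at 8 dpp and at 66.7, 59.0, 70.4, 80.2 and 92.4 TPM at 18 dpp, overlapping, with a limma adjusted p of 0.411, while its adult samples lay between 12.5 and 23.9 TPM. 2700049A03Rik (Talpid3) rose from 7.98, 7.45 and 6.97 TPM to 64.7, 53.8, 48.5, 26.4 and 27.8 TPM (2.33 ± 0.192 SE in log2(TPM + 1), adjusted p = 3.39e-11) and was between 108 and 117 TPM in adult samples. 4932438A13Rik rose from 42.2 ± 2.82 to 74.6 ± 9.9 TPM (SD, adjusted p = 8.2e-07). For 2610507B11Rik, at 165 ± 11.5 and 190.0 ± 31.0 TPM, the adjusted p was 0.0654. 1300017J02Rik rose from 0.967 ± 0.163 to 13.3 ± 3.87 TPM (adjusted p = 1.71e-11).

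X-linked members took another course. Of 19 such members 4 were higher at 18 than at 8 dpp and 13 (68.4%) lower, with a median difference of -0.61 against 0.64 for autosomal members. Of the 566 X-linked protein-coding genes 8.83% were higher and 66.8% lower, so the share of X-linked members that fell was close to that of X-linked coding genes. The 4 that rose, 1700011M02Rik, 4930595M18Rik, 4930502E18Rik and 1700080O16Rik, were testis-clone members, 9 of the 19 being such. 1700011M02Rik, with the largest rise, went from 50.2, 82.0 and 52.9 TPM at 8 dpp to 230.0, 152, 165, 142 and 182 TPM at 12 dpp and 160.0, 150, 152, 205 and 161 TPM at 18 dpp, so it rose early and its 8 and 18 dpp mice did not overlap (1.44 ± 0.154 SE in log2(TPM + 1), limma adjusted p = 4.72e-09). Its adult samples were at 9.49, 13.6, 13.2 and 9.89 TPM. B630019K06Rik fell most, from 21.6, 24.2 and 23 TPM to 7.82, 6.4, 7.09, 7.99 and 9.09 TPM, and was under 0.7 TPM in every adult sample. At 3 TPM or more in all adult samples were 4 of the 19, namely 1700011M02Rik, 1700013H16Rik, 4933402E13Rik and 4930550L24Rik, against 85 of the 566 X-linked coding genes. Apart from 1700011M02Rik, 4933402E13Rik and 4930550L24Rik these X-linked members were named after their values were seen.

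In adult pachytene/diplotene samples 211 of the 310 members were at 3 TPM or more in all 4, where 55.7% of all genes and 64.3% of protein-coding genes were. These were 117 of 131 testis-clone members (89.3%) and 94 of 179 other members (52.5%). Of the 163 members higher at 18 than at 8 dpp, 153 (93.9%) were detected in adult cells, beside 88.5% of all genes so called. Of the 75 that fell, 26 (34.7%) were detected, beside 41.1%. The adult mean lay above the 18 dpp mean for 147 of the 163 risers (90.2%), beside 74.8% of all genes that rose, and for 4 of the 75 fallers. Spermatid markers were present in these adult samples, as given above, and their part was not tested.

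The 4 members of highest adult level were the 4 largest juvenile risers. 4922502D21Rik was at 1500, 1500, 1420 and 1460 TPM, 1700123L14Rik at 1180, 1210, 1110 and 1230, 1700010I14Rik at 1020, 1040, 1000 and 1050, and 1700029F12Rik at 893, 904, 797 and 923 TPM. Each adult sample lay above every 18 dpp mouse. The samples agreed closely, with SDs between 21.7 and 56.1 TPM. Members that had been highest in juvenile mice were low, with 2410002F23Rik at 7.22 ± 0.734 TPM and 4933402E13Rik at 14.3 ± 1.79 (SD, n = 4).

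**Figure D5:**
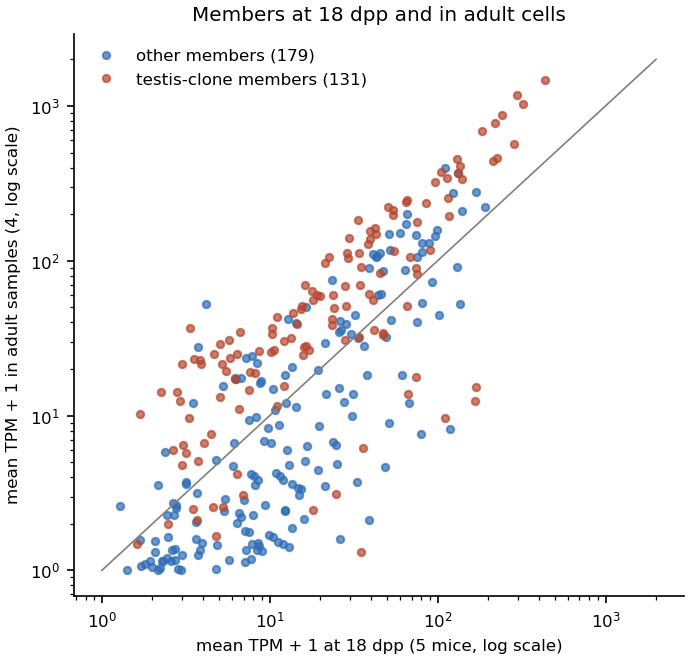
Mean TPM + 1 at 18 dpp (5 mice) against mean TPM + 1 in adult pachytene/diplotene samples (4 samples), both on log axes, for testis-clone members (red) and other members (blue), with the line of equal values in grey. Of the 131 testis-clone members 108 have an adult mean above their 18 dpp mean, and of the 179 other members 65 do, in tables that were normalized separately.

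Many members start close to another gene. In M21, 65 members had a protein-coding gene starting on the opposite strand within 1000 bases (21%, against 15.9% of protein-coding genes), and for 63 of them the partner was in the juvenile table. Of these, 2 pairs consist of 2 members each and are counted from both sides. With 34 of these members higher at 18 than at 8 dpp, the partner was higher for 20, lower for 10 and not called for 4. With 9 lower, it was lower for 4, higher for 3 and not called for 2. For members not called, the partner was higher for 5, lower for 9 and not called for 6. Of all protein-coding genes 33.1% were higher and 41.4% lower, and pairs outside the members were not counted by direction. 4931428L18Rik and its partner Pih1d3, an assembly factor for ciliary dynein, rose by 4.13 and 4.03 in log2(TPM + 1) from starts 154 bases apart. 1700003E16Rik rose by 6.37 and Wdr54, 7 bases away, by 2.27. These pairs were named after their values were seen.

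The pair 1700028J19Rik and 2410002F23Rik, both members and also chosen after their values were seen, moved in opposite directions. 1700028J19Rik (chr7:44229811-44246695) was at 1.71, 1.5 and 2.04 TPM at 8 dpp and 302, 274, 278, 126 and 108 TPM at 18 dpp, a rise of 6.19 ± 0.359 (SE, log2(TPM + 1), limma adjusted p = 3.42e-14), while 2410002F23Rik (chr7:44246722-44252319) fell as given above. Their M21 starts are 27 bases apart, but the RefSeq start of 1700028J19Rik is 10573 bases from its M21 start, so the shared start depends on the annotation. Likewise 1600012H06Rik decreased by 0.62 while Wdr27, starting 26 bases away, rose by 2.78.

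Transcript usage, the share of a gene's TPM carried by each of its transcripts in percent, was compared for 16 and 18 dpp against 8 and 10 dpp with limma. Of 71 members with 2 or more measured transcripts, 8 were called at an adjusted p under 0.05 and a change of 20 points or more, and 5.34% of all genes tested were called. The largest changes were in 4930404N11Rik, 0610010F05Rik and D330045A20Rik. In 0610010F05Rik (Kiaa1841) transcript 207, annotated as a target of nonsense-mediated decay, made up 8.0, 17.8 and 24.5% at 8 dpp and 77.9, 79.7, 62.6, 61.1 and 45.5% at 18 dpp. Those 2 ages did not overlap. At 16 dpp transcript 207 made up 43.3, 28.9, 20.9, 31.9 and 22.7%, so the tested groups, 8 and 10 dpp against 16 and 18 dpp, did overlap. Over both pairs of ages its share differed by 33.9 ± 4.7 points (SE, limma adjusted p = 0.000122). The coding transcript 208 fell from 63.6% over the 8 younger mice to 31.6% over the 10 older ones, by 32.1 ± 4.76 points (SE, limma adjusted p = 0.000226), also with overlap.

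The largest change in 4930404N11Rik was of the retained-intron transcript 203, which overlapped between the groups, at 0.0 to 64.9% in the younger mice and 46.8 to 72.9% in the older ones (37.0 ± 7.66 points, limma adjusted p = 0.00344). This gene overlaps Mfsd12 on the other strand. In D330045A20Rik transcript 201 made up 44.4% in the younger and 71.0% in the older mice and differed by 28.9 ± 8.7 points (adjusted p = 0.0336), again with overlap, between transcripts of 3737 and 3736 bases in length. C530008M17Rik, named above for its dip at 12 dpp, had transcript 203 listed at 0 in all 8 younger mice and at between 18.2 and 27.7% in the 10 older ones (22.6 ± 1.41 points, adjusted p = 3.51e-08).

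Several measurements are limited by annotation. Of the 310 members 160 overlapped another gene in span, introns included, and 132 did so on the opposite strand. Exon overlap was not checked, so how many of them share exon sequence is not known. At least 95% identity with another gene, over at least 50% of the longest coding transcript, was found for 28. Among the latter were members of large rise, named after their values were seen, such as 1700018F24Rik (5.93 in log2(TPM + 1), copy Gm4871) and 4933402N22Rik (5.70, several Speer-like copies), whose levels depend on how reads were divided. The median longest coding transcript was 1579 bases for testis-clone members that rose, 2583 for members that fell and 3040.5 for protein-coding genes, with medians of 5, 4 and 9 exons.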

How the data were processed

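Germ cells of 28 juvenile mice and 4 adult pachytene/diplotene samples were analysed. The authors made poly-A TruSeq libraries, sequenced 100 bp paired-end reads, aligned them with Bowtie 1.0.0 to Ensembl, NONCODE and piRNA precursor transcripts and computed TPM with RSEM 1.2.8. Strandedness is not given in the sources used here. The deposited transcript and adult tables hold TPM. The deposited juvenile gene table holds exp(log2(TPM + 1)) - 1, a scale worked out from the transcript sums, and was converted to TPM. Converted values summed to 990305 to 993726 per mouse. TPM keeps no depth. The authors' substage calls, also in the tables, were not used. No column lacked a sample (0).

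Symbols, types and coordinates came from GENCODE M21 (GRCm38), promoters from RefSeq (GRCm38.p6). Age differences were fitted with limma 3.58.1 (R 4.3.3) on log2(TPM + 1) over all 20368 genes and 28 mice, 6 ages in 1 model, with prior variance following the mean and Benjamini-Hochberg adjustment at 0.05. A difference on this scale understates the change of low genes. Usage was fitted likewise on percentages of transcripts in genes of at least 3 TPM. Near-identical copies were sought with BLAST+ 2.17.0, and other steps used Python 3.11.15 with pandas 2.3.3. The fits were checked on simulated data. The mouse numbers did not pair mice of different ages.

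Members and lists were chosen with earlier results of these data known. The genes named are the 8 largest called rises and falls from 8 to 18 dpp without overlap, the largest rise and fall of each step, the 4 highest in juvenile and in adult samples, 3 transient and 3 constant members, the X-linked extremes and 3 usage changes, and any other is said to be named after its values were seen. Alternatives were the pseudocount (0.1 and 3), filters, scalings, prior variance, ages fitted, the replicate block, mouse sets, and leaving out each sample.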

Additional observations from a re-analysis of the deposited data

Results flagged for a closer look

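Each named member was checked for a sample far from the others of its group, in groups of 4 or 5 samples. Of 188 groups 9 held such a sample, where chance flags about 1 in 20. Mouse 5 of 10 dpp was highest in 3 of them, with 6330403K07Rik at 8.69 TPM (others 5.06 to 5.91), 1700011M02Rik at 93.2 TPM (others 62.1 to 69.2) and A630073D07Rik at 1.19 TPM (others listed at 0). At 14 dpp E030030I06Rik was at 4.52 TPM in mouse 1 (others 1.2 to 1.46), a value within the range of its 10 dpp mice, and 4933415F23Rik at 3.94 TPM in mouse 6 (others 1.84 to 2.3). At 18 dpp 6330403K07Rik was at 2.63 TPM in mouse 5 (others 0.74 to 1.1) and 1700011M02Rik at 205 TPM in mouse 4 (others 150 to 161), the mice whose pachytene marker sums were the lowest of that age. At 12 dpp 1110004F10Rik was at 134 TPM in mouse 2 (others 124 to 127) and D330045A20Rik at 9.0 TPM in mouse 1 (others 9.57 to 9.77), both small departures.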

How the results depend on the processing

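TPM keeps no depth, so the spread between mice is the only error known, and 3 mice at 8 dpp limit the comparisons with that age. Scaling moved the median of all genes: the 18 dpp minus 8 dpp difference was -0.09 in the fit reported, 0.05 with median-of-ratios factors and -0.26 with quantile normalization, and the median of members minus that of all genes was 0.62, 0.61 and 0.54. Members called higher at 18 than at 8 dpp numbered 150 to 176 over the alternatives (163 in the fit reported) and 156 to 169 when 1 mouse was left out. Those called lower numbered 57 to 92 (75) and 64 to 76. Testis-clone members called higher numbered 96 to 108 (104) and 100 to 107, and other members 51 to 69 (59) and 56 to 62. The share of members called higher, with filters added after seeing the data, was 52.0% for means of at least 10 TPM and 48.9% for genes at 3 TPM before 18 dpp.

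Small counts moved more. From 8 to 10 dpp, 3 members became 5 with a pseudocount of 0.1 TPM, 1 with only the ages compared and 1 with mice 1 to 3 only, and 1 to 4 when 1 mouse was left out, 1 being reached without mouse 1 or 2 of 8 dpp. From 12 to 14 dpp, 0 became 1 with a pseudocount of 0.1 TPM and 0 to 5 when 1 mouse was left out. Usage calls went from 8 to 18 with a line of 10 points and to 4 for genes of at least 10 TPM, and to 7 to 10 when 1 mouse was left out. The remaining counts stayed within 1.5 times: 52 to 72 (12 against 10 dpp), 104 to 124 (16 against 14 dpp), 183 to 214 (18 against 16 dpp), 251 to 269 (any age) and 211 to 214 (adult detection) when 1 sample was left out. The cause of these changes was not tested.

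Mouse numbers did not pair mice of different ages (3 of 57 same-numbered pairs had r over 0.1, median 0.0147, and 8 of 28 mice correlated best with their own number). With the replicate block, 165 members were higher and 80 lower at 18 than at 8 dpp, 1 was called from 8 to 10 dpp, and 7 in usage.

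For 35 named members, 1363 combinations of a member and an alternative setting were examined. The call for the 18 against 8 dpp difference was the same in 1356 of them. With median-of-ratios factors 1110004F10Rik reversed, to 0.04, 4933402E13Rik lost its call and 4833420G17Rik gained one (0.21). The call of 1110004F10Rik was also lost without mouse 1 of 8 dpp, without mouse 3 of 18 dpp and with only the ages compared, and 1500009L16Rik was called lower with mice 1 to 3 only (0.36 lower).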

Other observations

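Of the 271 Rik protein-coding genes outside the juvenile gene table, 246 had rows in the transcript and adult tables. Of the 271, 113 were named from testis clones. In the adult pachytene/diplotene samples 52 of the 246 were at 3 TPM or more in all 4 samples. Of the 52, 51 were named from testis clones, and by definition none reached 3 TPM in a juvenile mouse. The share detected among all genes outside the juvenile gene table was not counted. The highest was 4933411K16Rik, at 44.3, 30.3, 49.6 and 48.3 TPM in adult samples and at most 0.97 TPM in any juvenile mouse. 1700009N14Rik followed, at 40.5, 31.9, 50 and 45.8 TPM against at most 1.51. The 1 gene of another source was 2900092C05Rik, with an adult mean of 9.06 TPM. The lowest value of each of the first 3 genes was in adult sample 2, where the spermatid marker sum was also lowest (872 TPM, against 999 to 1190), and the part of spermatid RNA was not tested.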
